A study of Mus musculus with 4 samples.

Results

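The genes described here encode interleukin 1 beta (Il1b), its natural receptor antagonist (Il1rn) and its signalling receptor (Il1r1), interleukin 18 (Il18), the inflammasome components caspase-1 (Casp1) and the adaptor ASC (Pycard), tumour necrosis factor (Tnf) and both of its receptors (Tnfrsf1a and Tnfrsf1b). They were chosen by gene symbol or gene ID, which gave 9 genes of 13108 and 13 probe sets of 22626, a probe set being several array probes designed on 1 transcript. The table lists Pycard under its older symbol Asc, with gene ID 66824. All 9 genes had a value on every array.

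RNA was measured on 4 Affymetrix arrays, with 1 array per group. Primary mouse adipocyte cultures from visceral fat were exposed for 2 h to DMSO vehicle or to 10 µM forskolin, which activates adenylyl cyclase and raises cAMP. Whole epididymal fat pads came from control mice on normal chow and from mice kept for 12 weeks on a diet high in fat (60%), and the column headers name both groups WT. Strain, age and the number of animals or cultures behind each array are not stated in the sources used here. With 1 array per group there was no replicate check and no test was run, so each difference compares a pair of arrays and their number limits the precision. In whole fat, fewer cells of a type and less RNA per cell cannot be told apart.

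Interleukin 1 beta and interleukin 18 are made as inactive precursors, and caspase-1, recruited through ASC in an inflammasome, cuts them to the secreted forms. Interleukin 1 receptor signalling runs through MyD88 and IRAK kinases to NF-kB, and the antagonist binds the same receptor without signalling. Tumour necrosis factor is released from the cell surface by the protease ADAM17; receptor 1 is made by most cell types, whereas receptor 2 is best known from immune and endothelial cells. In obese fat these cytokines are known above all as products of macrophages, and tumour necrosis factor is known to impair insulin signalling in adipocytes.

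The authors' deposited table sorts probe sets by whether the gene has a predicted CRE, the DNA element of the cAMP-activated factor CREB, and all 13 probe sets of these genes were classed others, as were 68.8% of all probe sets with a class. The method of this prediction is not stated in the sources used here. RefSeq promoters of the GRCm38.p6 build matched 9 of 9 genes, with 12 start sites. The 250 bases before each start were searched on both strands for the full CRE TGACGTCA, the half-site TGACG, the NF-kB consensus and GAGGAA, a core bound by the myeloid factor PU.1. The full CRE was found before none of the 12 start sites (it stands before 1.55% of 32851 start sites), the half-site before 1 of Il1r1 (17.8%), and the NF-kB consensus before the other start of Il1r1 (3.90%). GAGGAA was found before 4 of the 12, those of Casp1, Pycard, Tnf and Tnfrsf1b, against 23.3% of all start sites. A match is a description of letters and not a binding site, and no match says only that these letters are not in this window. The sequences before Casp1, Pycard and Tnfrsf1b are shown because these genes were among those highest on the high fat diet. Those before Tnf and Il1b are shown because they are ligands. Il1rn also rose with the diet, 4.11-fold by its brightest probe set, but GAGGAA was found before none of its 3 start sites, which are not shown. The windows of its start sites 2 and 3 overlap, so the 12 windows are not all separate. Any link between GAGGAA and the diet difference was not tested. Capitals mark GAGGAA or its reverse complement. They run 5′ to 3′ along the gene, with Casp1 at chr9:5298267-5298516 on the plus strand and Pycard at chr7:127993868-127994117, Tnfrsf1b at chr4:145246871-145247120, Tnf at chr17:35202008-35202257 and Il1b at chr2:129371140-129371389 on the minus strand.
Casp1: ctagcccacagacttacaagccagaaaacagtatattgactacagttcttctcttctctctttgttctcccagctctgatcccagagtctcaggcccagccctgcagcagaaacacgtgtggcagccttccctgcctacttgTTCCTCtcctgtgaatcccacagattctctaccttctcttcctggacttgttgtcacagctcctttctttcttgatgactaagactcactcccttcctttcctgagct
Pycard: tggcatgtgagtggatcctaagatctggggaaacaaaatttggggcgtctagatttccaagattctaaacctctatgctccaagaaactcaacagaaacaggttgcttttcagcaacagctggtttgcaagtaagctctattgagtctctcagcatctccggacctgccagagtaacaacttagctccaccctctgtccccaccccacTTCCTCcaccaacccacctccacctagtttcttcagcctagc
Tnfrsf1b: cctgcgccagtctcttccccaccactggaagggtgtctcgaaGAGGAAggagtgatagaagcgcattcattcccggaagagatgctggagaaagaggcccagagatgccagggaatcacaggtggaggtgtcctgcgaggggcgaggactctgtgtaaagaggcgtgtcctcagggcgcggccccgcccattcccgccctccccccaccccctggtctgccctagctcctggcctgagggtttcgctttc
Tnf: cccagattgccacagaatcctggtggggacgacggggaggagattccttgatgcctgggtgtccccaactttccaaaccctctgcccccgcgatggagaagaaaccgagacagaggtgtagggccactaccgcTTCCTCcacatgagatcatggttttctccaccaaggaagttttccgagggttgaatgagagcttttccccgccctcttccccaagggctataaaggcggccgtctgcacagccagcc
Il1b: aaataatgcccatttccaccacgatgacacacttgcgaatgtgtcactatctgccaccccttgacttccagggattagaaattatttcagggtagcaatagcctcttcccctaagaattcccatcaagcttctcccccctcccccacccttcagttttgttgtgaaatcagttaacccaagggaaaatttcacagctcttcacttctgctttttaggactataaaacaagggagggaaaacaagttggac
The match began at base -108 before the start of Casp1, -42 of Pycard, -208 of Tnfrsf1b and -117 of Tnf, where -1 is the base next to the start, and Il1b held none.

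Every value below is an intensity on a linear scale as the authors deposited it. The median intensity of all genes was 306.8 with vehicle, 306.3 with forskolin, 365.5 in chow fat and 422.1 in high fat diet fat. Of 9 measured adipocyte markers, all were at or above the median level in both comparisons, and Adipoq, the adiponectin gene, had 10260 with vehicle and 10460 on chow. At any level 3 of the 9 were at least 2-fold lower with vehicle than on chow and 0 higher, beside 17.1% and 12.3% of all genes. These were Lipe (606.5 and 4349), Pparg (709.5 and 3335) and Cidec (2672 and 7844). The 6 endothelial markers summed to 517 with vehicle against 11190 on chow, the 6 fibroblast markers to 2961 against 23540 and the 5 mesothelial markers to 192 against 2346. T cell and mast cell sums were 602 and 302 with vehicle against 721 and 808. The neutrophil and B cell sums were higher with vehicle, at 2535 against 726 and 2316 against 1230, and S100a8 (2196 and 269.4) and Ighm (2081 and 789.7) made up most of the vehicle sums. Of 13 macrophage markers, 5 lay at the floor of the vehicle array (its 10th percentile, 22.1), namely Tyrobp, Trem2, Fcgr1, Cd163 and Aif1. Csf1r, the receptor for the macrophage growth factor CSF1, gave 3293 there, most of the 4386 summed over the 10 macrophage markers with values on all arrays.

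**Figure D1:**
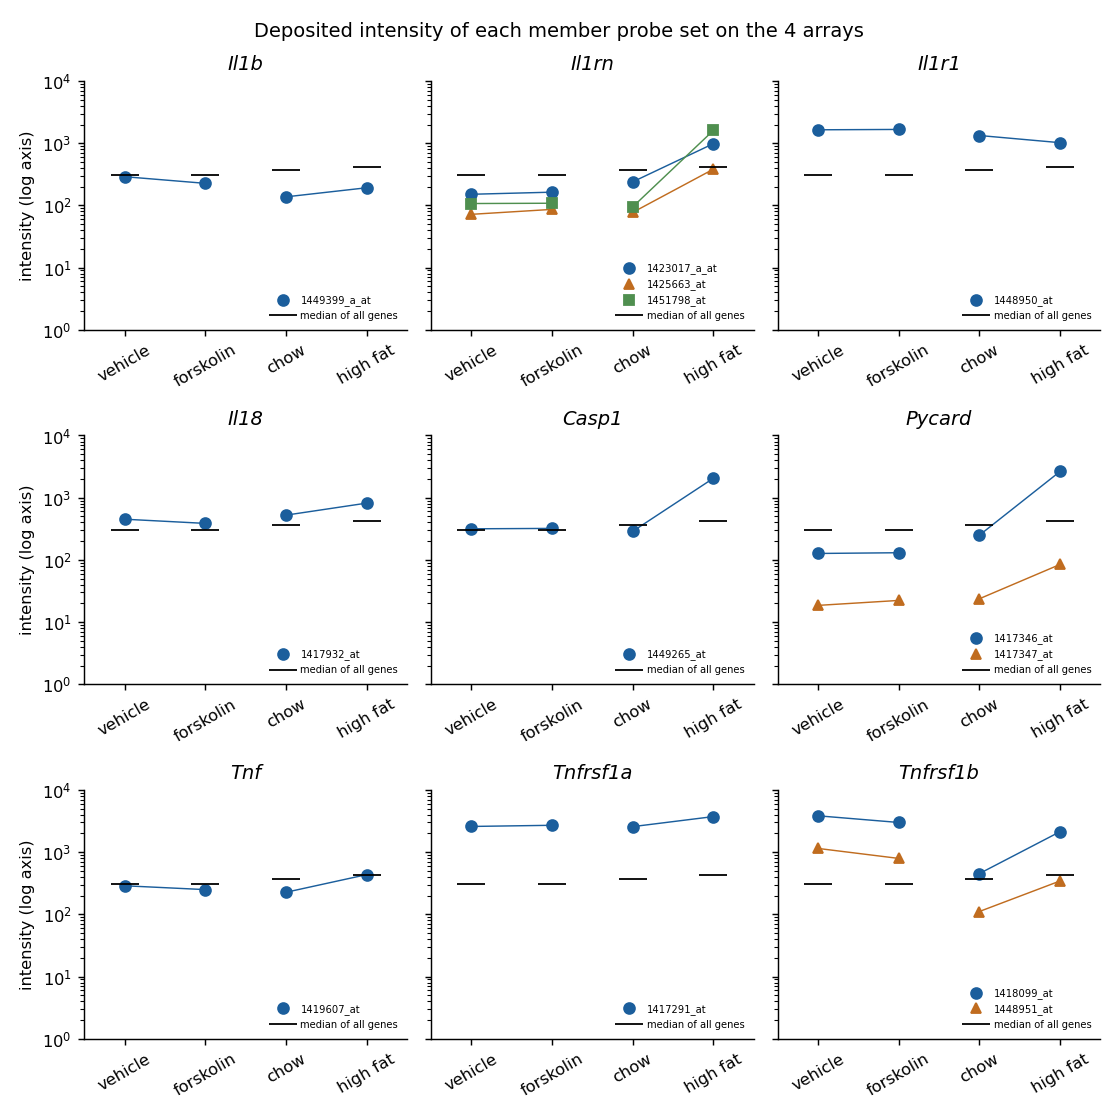
Intensity (log axis) of each probe set of the 9 genes on the 4 arrays, 1 point per array, with a black bar at the median level of all genes on that array; lines join the arrays of a comparison. Casp1, Pycard and all 3 probe sets of Il1rn lie within 1.5-fold between vehicle and forskolin and are higher on the high fat array, while Tnfrsf1b is highest in the cultures.

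The first question was how these genes differ in fat after long high fat feeding. The inflammasome genes, the interleukin 1 antagonist and tumour necrosis factor receptor 2 were several-fold higher on the high fat diet, while the ligand genes Il1b, Il18 and Tnf were less than 2-fold higher and Il1r1 was lower. Among the 9 genes, 4 reached 2-fold higher and 0 reached 2-fold lower, beside 12.2% and 7.43% of 12939 genes at any level. Another 3 lay within 1.5-fold, beside 60.7% of all genes. The median log2 difference was 0.94 over the 9 genes and 0.05 over all genes. At or above the median level on the brighter array of the pair lay 8 of the 9, a set in which 15.6% of all genes were called higher and 5.97% lower. Casp1, Pycard, Il1rn and Tnf reached that level on the high fat array and not on chow, so no weight is put on the count among these 8.

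Pycard, the adaptor that links an inflammasome sensor to caspase-1, had an intensity of 249.5 on chow and 2644 on high fat by its brighter probe set. This is 10.6-fold higher, with authors' bounds of 8.75 and 13.4 in the authors' deposited table, and its difference lay at percentile 99.2 of all genes. Its other probe set read 23.69 and 84.5, at least 3.37-fold higher with chow below that array's floor of 25.08. Both probe sets were therefore higher on the high fat diet, by different amounts. Casp1, the protease that cuts both interleukin precursors, read 287.8 on chow and 2054 on high fat, 7.14-fold higher (6.24 and 8.33 in the authors' deposited table). Such bounds come from single arrays and leave out the variation between mice.

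Il1rn is read by 3 probe sets, and each gave a higher value with the diet. The brightest read 239.2 on chow and 984.1 on high fat, 4.11-fold higher. The second read 77.21 and 382.6 (4.96-fold) and the third 94.68 and 1609 (16.99-fold). The size of the difference thus depended on the probe set, while the direction was shared; the transcripts each one reads are not stated in the sources used here. In the authors' deposited table, the lowest of the 3 bounds nearer to no change was 3.19.

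The ligand gene Il1b stayed below the median level on both fat arrays. It read 137.3 on chow and 192.3 on high fat, 1.40-fold higher, with bounds of 1.14 and 1.73 in the authors' deposited table. Against the antagonist, whose difference lay at percentile 96.3 of all genes, that of Il1b lay at percentile 74. Il1r1, the receptor that both bind, read 1331 on chow and 1020 on high fat, 1.30-fold lower, with bounds of 1.01 and 1.67 in the authors' deposited table. It was the 1 gene of the 9 that was lower on the high fat diet. Il18, whose precursor is also cut by caspase-1, read 524 and 818.2, 1.56-fold higher.

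Tnfrsf1b, receptor 2 of tumour necrosis factor, read 452.5 on chow and 2136 on high fat by its brighter probe set, 4.72-fold higher, and 111.1 and 344.4 by the other, 3.10-fold higher. Tnfrsf1a, receptor 1, read 2573 and 3733, 1.45-fold higher. The brighter Tnfrsf1b probe set lay at percentile 61.4 of the chow array and 89.1 of the high fat array, whereas Tnfrsf1a lay at 94.1 and 95.3. The ligand Tnf read 226.5 on chow and 435.4 on high fat. That is 1.92-fold higher, with bounds of 1.23 and 3.37 in the authors' deposited table that lie on both sides of 2-fold.

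**Figure D2:**
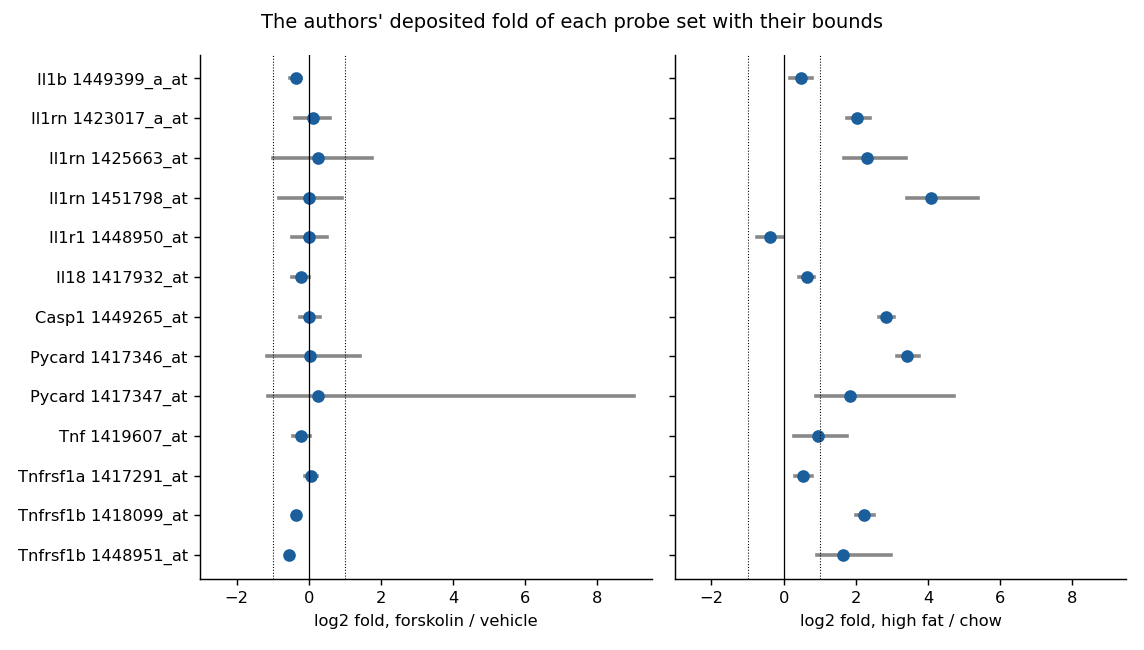
The authors' deposited fold of each probe set on a log2 scale (points) with their lower and upper bounds (grey bars), forskolin over vehicle at left and high fat over chow at right; dotted lines mark 2-fold. In the diet panel the bounds of 12 of 13 probe sets lie above 0 and those of Il1r1 below it; in the forskolin panel 3 of 13 lie on the lower side of 0 and the others reach or cross it.

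Macrophage, B cell and mast cell markers, and most T cell markers, were higher in the same pair of arrays. Of 13 macrophage markers 10 were measured on both, all 10 were higher on the high fat diet, 9 at least 2-fold, and their median was 6.62-fold. Their summed intensity was 14270 on chow and 58490 on high fat, 4.10 times as much, with none at the floor on either array. Cd68 read 812.8 and 8473, and Adgre1, which encodes the F4/80 antigen, 988.9 and 6562. The summed markers of T cells (5 measured) were 721 and 4610, of B cells (6) 1230 and 11600, and of mast cells (5) 808 and 4414, while the neutrophil sum (5) was 726 and 1032. A few genes carried some of these sums: Il7r (2726) and Lck (1069) that of T cells and Ighm (9691) that of B cells on the high fat array. The T cell marker Cd4 was 2.08-fold lower (69.41 and 33.45), and the neutrophil markers Cxcr2 and Elane were 1.66-fold and 1.62-fold lower, all 3 below the level filter. Mesothelial markers (5) summed to 2346 and 1050, and both measured markers of the epididymis, which lies beside this fat pad, to 90 and 113. All 6 fibroblast markers were higher, with sums of 23540 and 32380. The 6 endothelial markers, 2 of them higher, summed to 11190 and 8324. Of 9 measured adipocyte markers, Lep was 6.8-fold higher, Retn 3.48-fold lower and Cfd 2.13-fold lower, and the others lay within 2-fold. By their brightest probe sets, Casp1 (7.14) and Pycard (10.6) lay above the macrophage median and the other 7 genes below it. For Pycard and Il1rn this order turned with the probe set rule: with the median over probe sets their log2 differences were 2.58 and 3.38, below and above a macrophage median of 2.73. The part of these cells in the differences of the 9 genes was not tested.

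Other genes of the pathways, in lists of the interleukin 1 and 18 side, the tumour necrosis factor side and NF-kB, were described beside them. Of 47 measured genes 14 reached 2-fold higher in the high fat array at any level and 1, Lta, reached 2-fold lower, and 11 of the 14 also reached the level filter, where 34 of the 47 lay. Among all genes 12.2% and 7.43% reached 2-fold higher and lower at any level, and 15.6% and 5.97% at the filter. Ltb, Bcl3, Il18r1, Nfkbie, Il18bp, Irak4, Relb and Tnfrsf21 reached the filter level on the high fat array and not on chow. No weight is therefore put on the count of 11. The median log2 difference of the 47 was 0.45, beside 0.05 over all genes. On the interleukin 1 and 18 side, Il18bp, a secreted protein that binds and blocks interleukin 18, read 152.5 on chow and 1085 on high fat, 7.12-fold higher. Il18r1, a chain of the interleukin 18 receptor, was 5.90-fold higher (91.65 and 540.4), and Casp4, the inflammatory caspase of the noncanonical pathway, 3.58-fold higher (368 and 1319). Irak4, a kinase below MyD88, was 2.08-fold higher (215.2 and 446.7). Myd88 itself was within 1.5-fold (1850 and 1916), as was Nlrp3, the sensor that recruits ASC (396.3 and 331.3). Il1a read 13.52 and 21.9, below the floor of both arrays.

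On the tumour necrosis factor side, Ltb, which encodes lymphotoxin beta, had the largest difference of these lists, 28.1-fold higher (44.26 on chow and 1242 on high fat). Adam17, the protease that sheds tumour necrosis factor and its receptors, was 2.87-fold higher by its brightest probe set (695.1 and 1994), 4.97-fold by another and 11.6-fold by the third. Tnfrsf21, a death receptor of the same family, was 2.63-fold higher (293.8 and 774). Among NF-kB genes, Bcl3, a nuclear IkB protein, was 7.15-fold higher (63.35 and 453.2), the inhibitor Nfkbie 3.25-fold (142.6 and 463), and the subunits Nfkb1 and Relb 3.08-fold and 2.63-fold. Rela, the most widely used subunit, was 1863 and 2586, within 1.5-fold. Nfkbia, the inhibitor IkB alpha, was lower at 4043 and 3033, also within 1.5-fold.

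**Figure D3:**
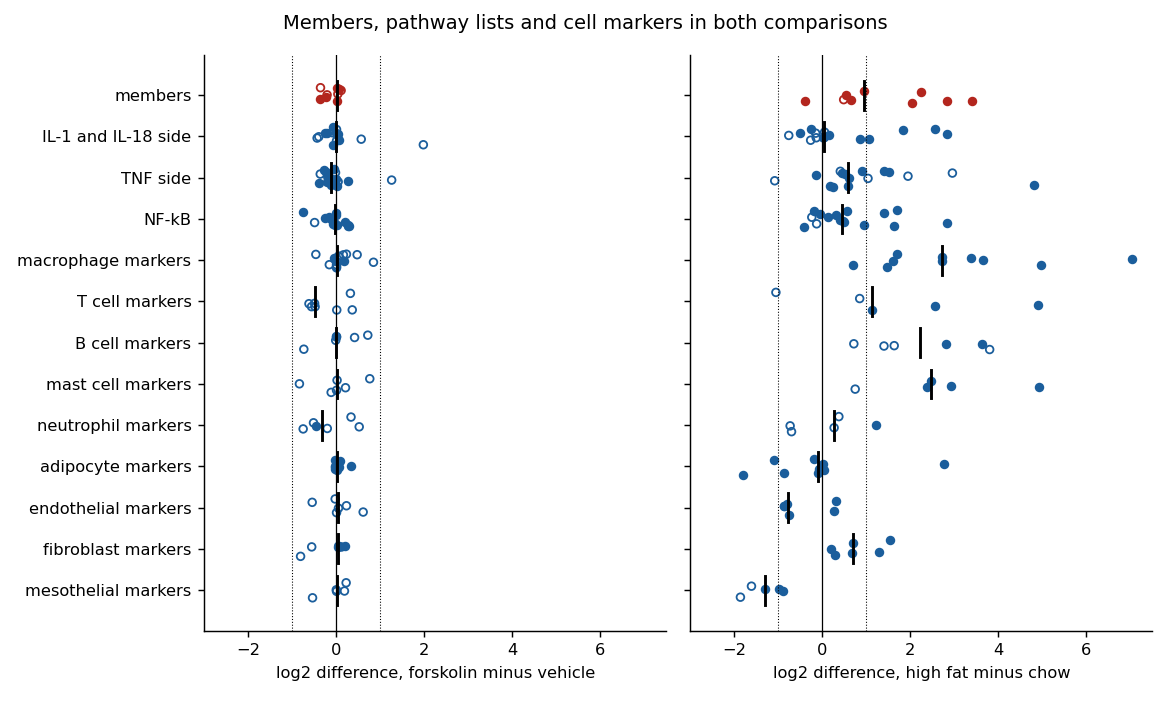
Log2 difference of each measured gene (points; open where the gene is below the median level on its brighter array) for the 9 genes (red, labelled members), the pathway lists and cell marker lists (blue), with a black bar at each list's median and dotted lines at 2-fold. Left is forskolin minus vehicle, where the 9 genes lie between -0.36 and 0.11; right is high fat minus chow, where they lie between -0.38 and 3.41 and the macrophage median is 2.73.

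The second question was whether these genes respond in cultured adipocytes when cAMP is raised. All 9 genes lay within 1.5-fold of vehicle, as did 90% of 13051 measured genes, and 0 reached 2-fold in either direction at any level (1.93% and 1.09% of all genes). The median log2 difference was 0.02 over the 9 genes and 0.00 over all genes. At or above the level filter lay 5 of the 9, beside 1.22% and 0.134% of such genes called higher and lower.

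The most negative differences among the 9 genes were those of Tnfrsf1b and Il1b. Tnfrsf1b read 3843 with vehicle and 3001 with forskolin by its brighter probe set, 1.28-fold lower, and 1148 and 793.1 by the other, 1.45-fold lower. In the authors' deposited table the bounds for these were 1.23 and 1.33, and 1.35 and 1.56, all on the lower side of 1. Il1b read 289.6 and 226.4, 1.28-fold lower with bounds of 1.15 and 1.42 in the authors' deposited table. The differences of Tnfrsf1b and Il1b lay at percentiles 8.9 and 9 of all genes.

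The other ligand genes were slightly lower and the inflammasome genes nearly equal on both culture arrays. Tnf read 288.1 and 249.9 (1.15-fold lower) and Il18 450.9 and 386 (1.17-fold lower), with authors' deposited bounds that reach or cross 1. Casp1 read 316 and 320.7, and Pycard 126.8 and 130.3. Its second probe set read 18.54 and 22.28, at or next to the floor of both arrays (22.1 and 22.23), so no fold is given. Il1rn read 151 and 163.3 by its brightest probe set, and its others gave 71.86 and 86.31, and 107.2 and 108.4. The receptors Il1r1 (1644 and 1666) and Tnfrsf1a (2590 and 2704) were 1.01-fold and 1.04-fold higher. Of 46 measured pathway genes 43 lay within 1.5-fold, 0 were at least 2-fold apart at the level filter, and the largest decrease among those at the filter was that of Nfkbiz (1268 and 749.1). Below the filter, Il18rap read 23.46 and 92.59 and Lta 18.68 and 52.96.

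The levels of the 9 genes also differed between the vehicle cultures and whole chow fat, which are different materials on arrays with different medians, so source and array cannot be told apart. This comparison was added after the values were seen. Tnfrsf1b was 8.49-fold higher with vehicle than on chow by its brighter probe set (3843 and 452.5) and 10.3-fold by the other (1148 and 111.1), at percentile 99.1 of all genes. At any level 2 of the 9 members, Tnfrsf1b and Il1b, were at least 2-fold higher and 0 lower, beside 12.3% and 17.1% of all genes. At the level filter lay 5 of the 9, where 17.2% of all genes were called higher and 17% lower. Tnfrsf1b was the 1 member called there. Its order over the arrays was vehicle, forskolin, high fat and chow by both probe sets. Il1b, below the level filter, had the same order (289.6, 226.4, 192.3 and 137.3) and was 2.11-fold higher with vehicle than on chow. Casp1 (316 and 287.8) and Tnfrsf1a (2590 and 2573) were nearly equal with vehicle and on chow, and Pycard was 1.97-fold lower with vehicle. Of 12 macrophage markers measured on both arrays 9 were at least 2-fold lower with vehicle at any level and 0 higher, beside 17.1% and 12.3% of all genes, and 6 of the 9 also reached the level filter. Their median was 2.80-fold lower. Tyrobp, a signalling adaptor of myeloid cells, was at the floor with vehicle and 1515 on chow.

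In the NF-kB list 7 of 16 measured genes were at least 2-fold higher with vehicle than on chow at any level. None was 2-fold lower, and the shares of all genes were 12.3% and 17.1%. These 7 also reached the level filter, where 14 of the 16 lay, beside 17.2% and 17% of all genes there. Bcl3, Relb and Nfkbie reached that level with vehicle and not on chow, so no weight is put on the count at the filter. Bcl3 was 10.6-fold higher (672.2 and 63.35), Relb 6.38-fold, Nfkb1 6.01-fold and the inhibitor Nfkbib 4.76-fold. Tnfaip3, which encodes the NF-kB inhibitor A20, was 24.1-fold higher (1543 and 64.08), and Casp4 10.8-fold higher (3992 and 368). Over the 3 pathway lists 15 of 47 measured genes were at least 2-fold higher with vehicle at any level and 5 lower, beside the same shares. On the interleukin 1 and 18 side 4 of 15 were higher and 4 lower, with a median log2 difference of -0.395. The lower genes were Il33, Il18rap, Il18r1, Sigirr and Lta, all below the level filter. Il33, an interleukin 1 family cytokine of stromal cells, read 29.99 with vehicle and 311.2 on chow.

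**Figure D4:**
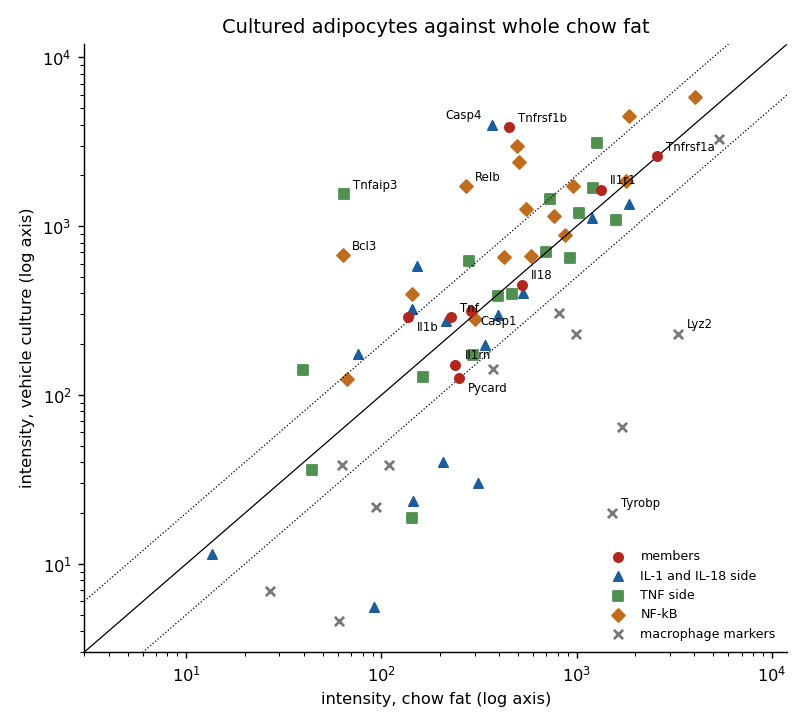
Intensity with vehicle (vertical, log axis) against intensity on chow (horizontal, log axis) for the 9 genes (red circles, labelled members), the pathway lists and the macrophage markers; the solid line marks equal values and the dotted lines 2-fold. Tnfrsf1b, Casp4, Tnfaip3 and Bcl3 lie above the upper dotted line, and most macrophage markers lie below the lower one; values are drawn without the floor.

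Genes whose log2 levels over the 4 arrays, after subtracting their own mean, came closest to those of a member were sought among 7671 genes. With 4 arrays many genes lie close to a flat profile, so distances (root mean square, log2) are descriptions. Closest to Casp1 were Map4k1 (0.067), Samhd1 (0.080) and Otulinl (0.087), and closest to Pycard were Birc5 (0.045), Naip5 (0.079) and Kcnab2 (0.15). Samhd1 read 746.7, 719.9, 586.1 and 4398 in the order vehicle, forskolin, chow, high fat. Il1rn was nearest to Myo1g (0.032), Hmgb2 (0.064) and Cotl1 (0.080), of which Myo1g read 298.7, 330.2, 463.4 and 2022. Tnfrsf1b, high in culture and on the high fat diet, was nearest to Ifi35 (0.11), Plk2 (0.12) and Ralgapa1 (0.13). Plk2 read 3120, 2349, 368.3 and 2077 in the same order. The flatter profiles had closer neighbours: Tnf was nearest to Ankfy1 (0.011), Usf2 (0.016) and Zmat5 (0.029), and Il1r1 to Nomo1 (0.011), Mrpl32 (0.019) and Ccnd2 (0.022). Il18 was nearest to Stk38 (0.026), Antkmt (0.030) and Zbtb22 (0.039), and Tnfrsf1a to Arid3a (0.014), Vps52 (0.014) and Lcmt1 (0.018). Il1b was below the level filter in both comparisons and was not matched.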

How the data were processed

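Per probe set, the authors deposited an expression index, which is an intensity on a linear scale; the software and normalization behind it are not stated in the sources used here. The series' value table held the same intensities (90504 of 90504 cells). Per the file headers, a deposited score gives a signed fold change and a pair of bounds of unstated confidence. Values under an array's 10th percentile were set to it before log2 (Python 3.11.15, pandas 2.3.3). Genes were named by gene ID through RefSeq (20834 probe sets), and each was read by its brightest probe set on average. A call needed a fold of 2 and, on the brighter array, at least the median level. The steps were tested on simulated data. The 9 genes, the lists, the motifs and the settings were chosen with earlier results of these data known. Named pathway genes were the called ones, at most 4 per list and comparison. Pathway genes named though not called, and those named for the cultures, were chosen after their values were seen. The 3 nearest profiles were named for each member at the level filter.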

Additional observations from a re-analysis of the deposited data

How the results depend on the processing

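The members called higher with the high fat diet numbered 4, and 3 to 6 under fold thresholds of 1.5 and 3, no level filter or one at the 75th percentile, centring on the median, quantile normalization, 16 added before log2, the median over probe sets, probe sets without shared suffixes, the authors' folds and, added after seeing the data, the authors' bound nearer to no change. The 6 arose at 1.5-fold, where 27.9% of all genes at the level filter were called higher. The 3 arose with the filter at the 75th percentile, beside 17.1%, and at 3-fold the count was 4, beside 7.85%. In the main setting Casp1, Pycard, Il1rn and Tnf reached the level filter only on the high fat array, so no weight is put on the filtered counts. With no level filter the count was 4, beside 12.2% of all genes. The forskolin count was 0 under each of these settings. No member's difference changed sign in 54 forskolin and 54 diet values. Some of these values could not change. No member probe set carries a shared suffix, and the median over probe sets alters only members with more than 1 probe set. The authors' folds come from the same arrays. The diet differences of Il1rn and Pycard moved to 3.38 and 2.58 with the median over probe sets. Smaller diet differences depended on the array scaling. With quantile normalization that of Tnfrsf1a went from 0.54 to 0.20 and that of Il1r1 from -0.38 to -0.69. After centring, that of Il1b went from 0.49 to 0.28. Centring and quantile normalization moved the diet median of all genes from 0.05 to -0.16 and -0.11, and the shares of all genes called higher and lower from 15.6% and 5.97% to 12.2% and 9.33%, and 12% and 11.9%. The members' diet median was 0.74 after centring, 0.76 after quantile normalization and 0.90 with 16 added, and their forskolin median was 0.001 after quantile normalization. Pathway genes called higher with the diet numbered 7 at 3-fold and 4 with the filter at the 75th percentile, in place of 11, by the construction of these settings. The shares of all genes were 7.85%, 17.1% and 15.6%. With no level filter, pathway genes called numbered 2 higher with forskolin and 1 lower with the diet, beside 1.93% and 7.43% of all genes. At 1.5-fold, 1 was lower with forskolin, beside 0.641%. The members called higher in vehicle culture over chow fat numbered 2 in place of 1 with the median over probe sets and without shared suffixes. In these 2 settings Il1b joined Tnfrsf1b. In the main setting 17.2% of all genes at the level filter were called higher. The shares under the other 2 settings are not given here, so no weight is put on this change. Il1b has 1 probe set, so its values were the same, and only the median level of all genes that a call needs differed. In the main setting Il1b had 289.6 with vehicle, below that median of 306.8. No paired analysis was possible because each group held 1 array. Levels near the floor limit Il1a, Il18rap, Lta and the dimmer Pycard probe set.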
